A study of Mus musculus with 6 samples.

Results

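Odc1, Amd1, Srm, Sms, Sat1, Oaz1, Azin1, Arg1 and Arg2 are the core mouse genes of polyamine and arginine metabolism, and they are described here across 6 leukemia libraries. The 9 genes, called members in the plots, were chosen by name from earlier results on these same counts. All 9 are among the 23337 genes of the count table. The difference between ccl5 and control libraries was part of that choice, so the levels of the 9 genes are a description and support nothing by themselves. Of the 9, 6 passed the filter on low counts (Odc1, Srm, Sms, Azin1, Sat1 and Arg2). Arg1 fell under it, and the table does not measure Amd1 and Oaz1 for a reason given before the results.

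The RNA came from primary neonatal mouse leukemia, which the series title describes as MLL-rearranged. The treated group was given ccl5, a chemokine that attracts leukocytes, and the other group was a control, with 3 libraries in each. The labels name a tertiary transplant for ccl5 replicate 1 and a primary transplant for ccl5 replicates 2 and 3 and control replicate 3. They name no transplant for control replicates 1 and 2, and they give no strain, dose, duration or fusion partner. The titles of ccl5 replicates 2 and 3 share a prefix that differs from that of ccl5 replicate 1, and what the prefixes stand for is not known here. Nothing in the labels says whether separate animals or cultures lie behind the libraries of a group, and p-values measure only the spread between these libraries, which may be technical. Bulk RNA cannot tell fewer cells of a type from less RNA per cell.

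Polyamines are small positively charged molecules that bind nucleic acids and are needed for cell growth. Ornithine decarboxylase (Odc1) makes putrescine from ornithine, and spermidine synthase (Srm) and spermine synthase (Sms) extend it with aminopropyl groups that come from S-adenosylmethionine through the decarboxylase Amd1. Antizyme (Oaz1) binds the Odc1 enzyme and sends it to the proteasome, and antizyme inhibitor (Azin1), a relative of Odc1 without enzyme activity, takes antizyme away from it. Spermidine/spermine acetyltransferase (Sat1) starts the breakdown and export of polyamines. Arginase 1 (Arg1, cytosolic) and arginase 2 (Arg2, mitochondrial) make the ornithine from arginine, and Arg1 is known both from liver and from some macrophages and neutrophils.

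Antizyme is made only when ribosomes shift reading frame on its mRNA, a step that polyamines promote. The stretch of Oaz1 around the shift is printed here because the same letters also lie in a pseudogene, Oaz1-ps, which bears on how the gene was counted. The capitals mark the shift site, and both stretches are 5′ to 3′ from GENCODE transcripts on GRCm38, the build that UCSC calls mm10. The Oaz1 stretch lies at chr10:80828262-80828328 on the plus strand, in the coding part of the mRNA. The Oaz1-ps stretch lies at chr17:17345903-17345969 on the minus strand. All 67 bases were equal in both.
Oaz1: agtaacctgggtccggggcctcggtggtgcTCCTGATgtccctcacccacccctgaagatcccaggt
Oaz1-ps: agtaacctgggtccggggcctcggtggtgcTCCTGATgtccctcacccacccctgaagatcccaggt

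The table listed Oaz1 at 0 counts in all 6 libraries and Amd1 at 1 count in all, which was in ccl5 replicate 2. In the annotation used for counting, the exons of Oaz1 (chromosome 10, 80826656 to 80829290, plus strand) covered 1075 bases, and 962 of these, 89.5%, were also exons of the row Oaz1-ps. The exons of Amd1 (chromosome 10, 40287458 to 40302188, minus strand) covered 3206 bases, and 3197 of these, 99.7%, were also exons of the row Amd2. Both copy rows lay wholly inside their partner's exons and were at 0 counts.

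GENCODE places these copies elsewhere, Oaz1-ps at chromosome 17 (17345456 to 17346140) and Amd2 at chromosome 10 (35708675 to 35711892). The Amd1 and Amd2 transcripts were 99.6% identical over 3202 aligned bases, and Oaz1 and Oaz1-ps were 99.3% identical over 685. By its default, featureCounts assigns no read that touches exons of 2 genes, and the counting command in the file header set no option that changes it. Of the 418 genes in the table with at least 95% of their exon bases shared with another row, 410 (98.1%) had 0 counts in all libraries. Of the 20598 genes that shared no base, 4116 (19.98%) had 0 counts. The rows of Oaz1 and Amd1 therefore say nothing about how much of these mRNAs the cells held, and no fold change is given for them.

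**Figure D1:**
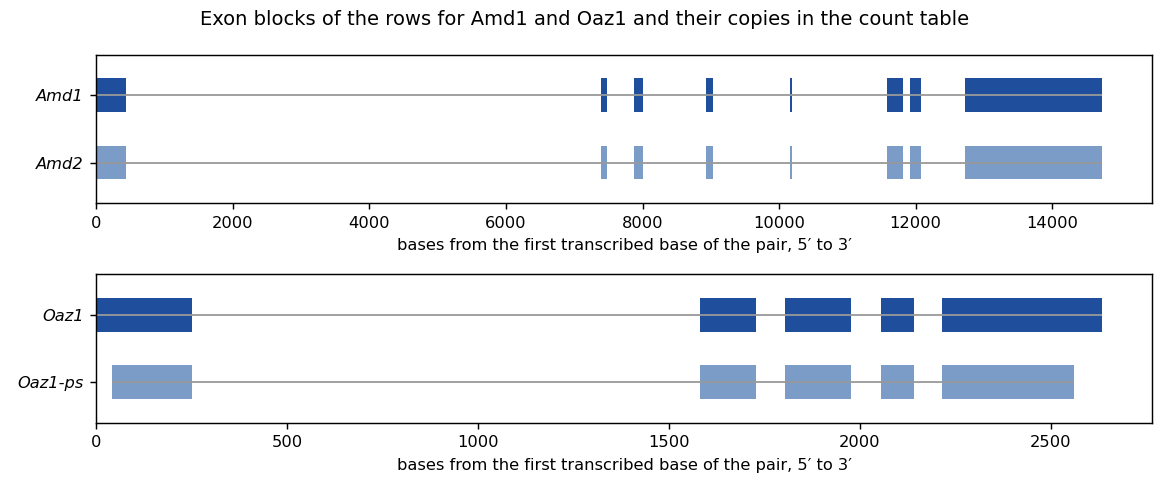
Exon blocks of the rows for Amd1 and Amd2 (upper panel) and Oaz1 and Oaz1-ps (lower panel) in the count table's own annotation, drawn to scale in bases from the first transcribed base. Nearly every exon base of Amd1 (99.7%) and most of Oaz1 (89.5%) lie under the row of the copy.

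The other 7 genes shared no exon base with another row, except Arg2, where 285 of 1417 bases (20.1%) also belong to Vti1b. Reads can also move between genes that hold the same stretch of letters. Of the 100-base stretches of the GENCODE transcript, 19.6% in Odc1 occur in another gene too, chiefly Gm17709. In Sms 27.7% occur in another gene, chiefly Sms-ps. The share was 14.45% in Arg2 (chiefly Vti1b, the row it overlaps), 5.45% in Azin1, 0.376% in Sat1 and 0 in Srm and Arg1. These shares count letters only. How far they affect the levels of Odc1, Sms and Arg2 was not tested.

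Gene counts summed to between 13421100 and 18445095 per library, and 3 counts, the limit that a count of 0 allows, corresponded to at most 0.273 CPM (counts scaled to the TMM library size). The libraries did not group by treatment. Control replicate 3 was as close to ccl5 replicate 2 (0.739% of genes over 2-fold apart) as control replicates 1 and 2 were to each other (0.750%), and ccl5 replicates 1 and 3 were close as well (1.23%). In the other 12 pairs 25.2% to 42.3% of genes were over 2-fold apart. Counts in the close pairs still differed by more than sampling noise (chi-square per degree of freedom 3.55 to 7.27). Repeated preparations of the same cells can differ in that way too, so this does not show that the libraries of a pair are independent. Each library was counted as 1 sample because the labels list it separately. Since ccl5 replicate 2 and control replicate 3 paired across their labels, results on the members are given with and without them below. No gene of the 12174 tested passed an adjusted p of 0.05 in edgeR's quasi-likelihood test (0%), 13.7% had an unadjusted p under 0.05, and 15.8% had groups that did not overlap. DESeq2's Wald test called 194 genes and limma-voom with quality weights 8097.

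Odc1 (chromosome 12, 17544873 to 17551502, plus strand) catalyses the first and usually limiting step of polyamine synthesis. With ccl5 it measured 185, 193 and 191 CPM (replicates 1 to 3, the order used throughout), and the controls measured 794, 806 and 184 CPM. Control replicates 1 and 2 were high, the other 4 libraries lay within 10 CPM of each other, and the groups overlapped through control replicate 3. The means were 190 ± 3.97 and 594 ± 356 CPM (SD, n = 3 each), a fitted log2 fold change of -1.65 (SE 0.55) with ccl5 over control. Without control replicate 3 the log2 fold change was -2.06. Among the primary transplant libraries only, with 1 control, it was 0.05.

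Srm (chromosome 4, 148591513 to 148594619, plus strand) makes spermidine. It measured 15.3, 40.2 and 12.8 CPM with ccl5 versus 33.99, 35.4 and 29.5 CPM in the controls. The 2 lowest libraries were ccl5 replicates 1 and 3, while ccl5 replicate 2 was the highest of the 6, so the groups overlapped. The fitted log2 fold change was -0.53 (SE 0.46), and it was -1.22 without ccl5 replicate 2.

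Sms (X chromosome, 157443954 to 157492046, minus strand), which turns spermidine into spermine, had the narrowest range of the 6 genes. It measured 67.9, 38.5 and 76.0 CPM with ccl5 versus 55.3, 59.5 and 37.9 CPM in the controls. The highest library was 2.01-fold above the lowest, the low libraries were ccl5 replicate 2 and control replicate 3, and the groups overlapped. The fitted log2 fold change was 0.26 (SE 0.31).

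The antizyme inhibitor gene Azin1 (chromosome 15, 38487430 to 38519266, minus strand) measured 313, 91.1 and 329 CPM with ccl5 versus 233, 261 and 90.4 CPM in the controls. Like Sms, it was low in ccl5 replicate 2 and control replicate 3 and higher in the other 4 libraries. The fitted log2 fold change was 0.33 (SE 0.60), and it was -0.01 without control replicate 3. Odc1 and Azin1, related by descent, were 62.7% identical over 1139 aligned bases of their transcripts. Unlike Odc1, Azin1 was not set apart in control replicates 1 and 2, where it lay below ccl5 replicates 1 and 3.

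Sat1 (X chromosome, 155213139 to 155216409, minus strand), is the gene of the catabolic side. It measured 1300, 319 and 1550 CPM with ccl5 versus 759, 711 and 376 CPM in the controls. Ccl5 replicates 1 and 3 were highest and ccl5 replicate 2 was lowest, so the ccl5 group spanned the whole range, and the mean was 1056 ± 650 against 615 ± 208 CPM (SD, n = 3 each). The fitted log2 fold change was 0.78 (SE 0.61).

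Of the arginases, Arg2 (chromosome 12, 79130788 to 79156301, plus strand) measured 16.4, 2.26 and 21.6 CPM with ccl5 versus 5.33, 4.43 and 3.19 CPM in the controls. Ccl5 replicates 1 and 3 were high and ccl5 replicate 2 was the lowest of all, and the 9.55-fold range was the widest of the 6 genes. The fitted log2 fold change was 1.63 (SE 0.78), and it was 2.14 without ccl5 replicate 2. Arg1 (chromosome 10, 24915207 to 24927470, minus strand) had 2, 5 and 1 counts with ccl5 and 3, 7 and 3 counts in the controls. These counts lie near the limit of 3 counts in every library, so no fold is given and no difference was detectable at this depth. Arg1 shares no exon base with another row and no 100-base stretch with another gene, so overlap as at Oaz1 does not apply to it.

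**Figure D2:**
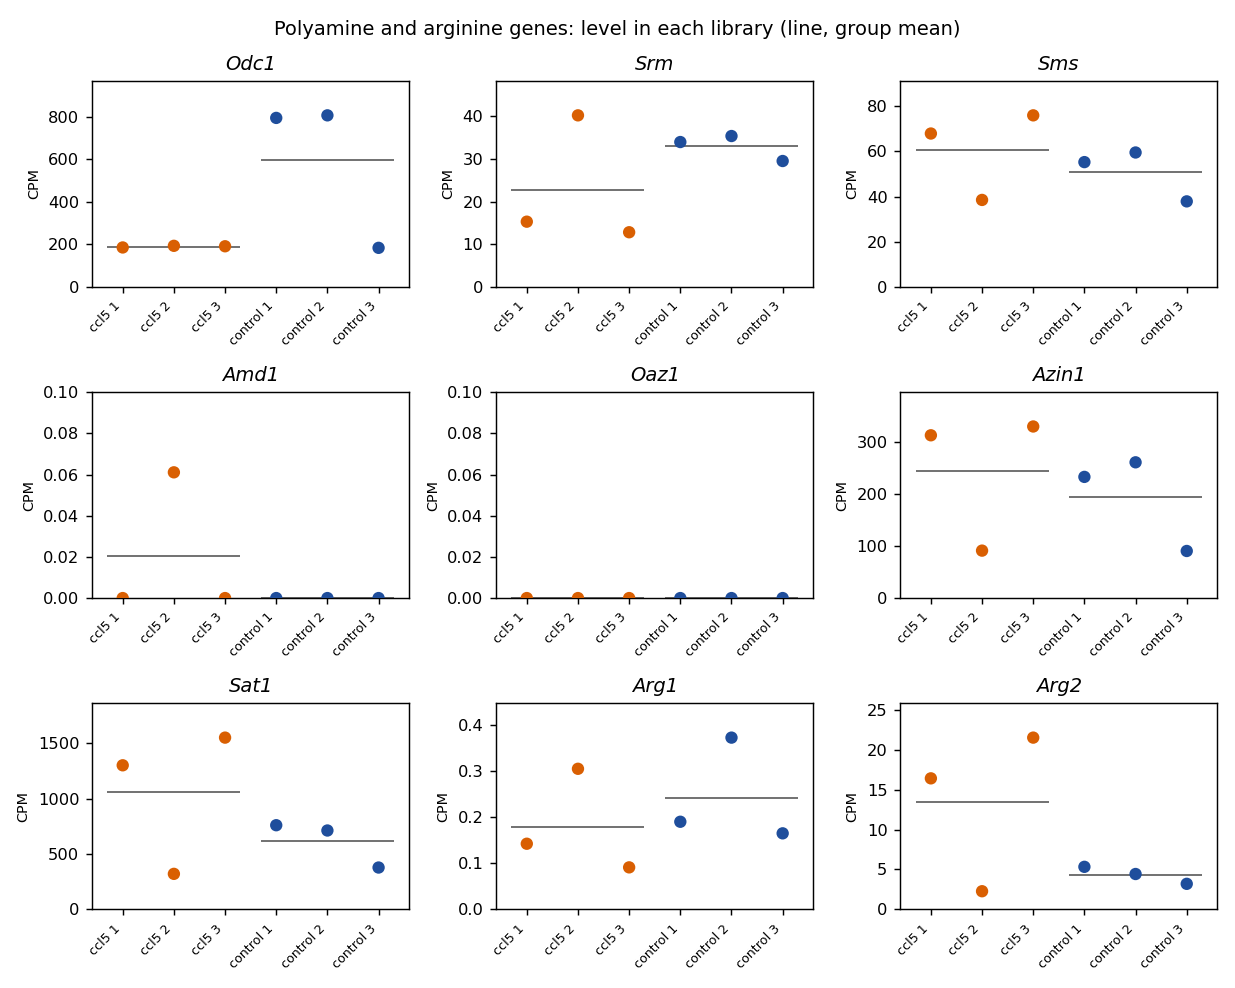
Level of each of the 9 genes in CPM (vertical axis, linear, each panel with its own scale) in the 3 ccl5 libraries (orange) and the 3 control libraries (blue), with a line at each group's mean. Odc1 is at 794 and 806 CPM in control replicates 1 and 2 and at 184 to 193 CPM in the other 4 libraries, while Sat1, Azin1 and Arg2 are lowest in ccl5 replicate 2 or control replicate 3, and the panels of Amd1 and Oaz1 show rows whose exons lie under a copy's row.

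The 6 tested genes thus had overlapping groups in every case, 0 of 6, where 15.8% of all tested genes did not overlap (8.27% higher and 7.49% lower with ccl5). None passed the adjusted test (0 of 6, against 0% of all genes; 1, Odc1, had an unadjusted p under 0.05), and the smallest adjusted p in the whole table was 0.365 (edgeR, Benjamini-Hochberg). Nothing is read from these counts, since this contrast was part of how the genes were chosen. Their fitted differences were lower with ccl5 in 2 genes (Odc1 and Srm) and higher in 4 (Sms, Azin1, Sat1 and Arg2), with a median log2 fold change of 0.29, beside -0.01 for all tested genes. Without ccl5 replicate 2, 2 of the 6 passed (Srm and Arg2), beside 26.2% of all genes tested, and without control replicate 3, 1 of the 6 passed (Odc1), beside 1.88%. Leaving out both libraries, a choice made after seeing the data, all 6 passed, beside 70.7% of genes, and their log2 fold changes were -2.07 for Odc1, -1.28 for Srm, 0.34 for Sms, 0.40 for Azin1, 0.97 for Sat1 and 1.98 for Arg2. What is then compared is ccl5 replicates 1 and 3 with control replicates 1 and 2, and treatment cannot be told apart there from anything else that separates these close pairs.

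The comparison between ccl5 replicate 2 and control replicate 3 runs across the treatment labels within 1 such pair. It has 1 library a side and no test. The ratio of CPM, ccl5 over control, was 1.05 for Odc1, 1.36 for Srm, 1.02 for Sms, 1.01 for Azin1, 0.848 for Sat1 and 0.708 for Arg2. No gene of the 6 was over 1.5-fold apart, and 3.14% of all tested genes were.

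**Figure D3:**
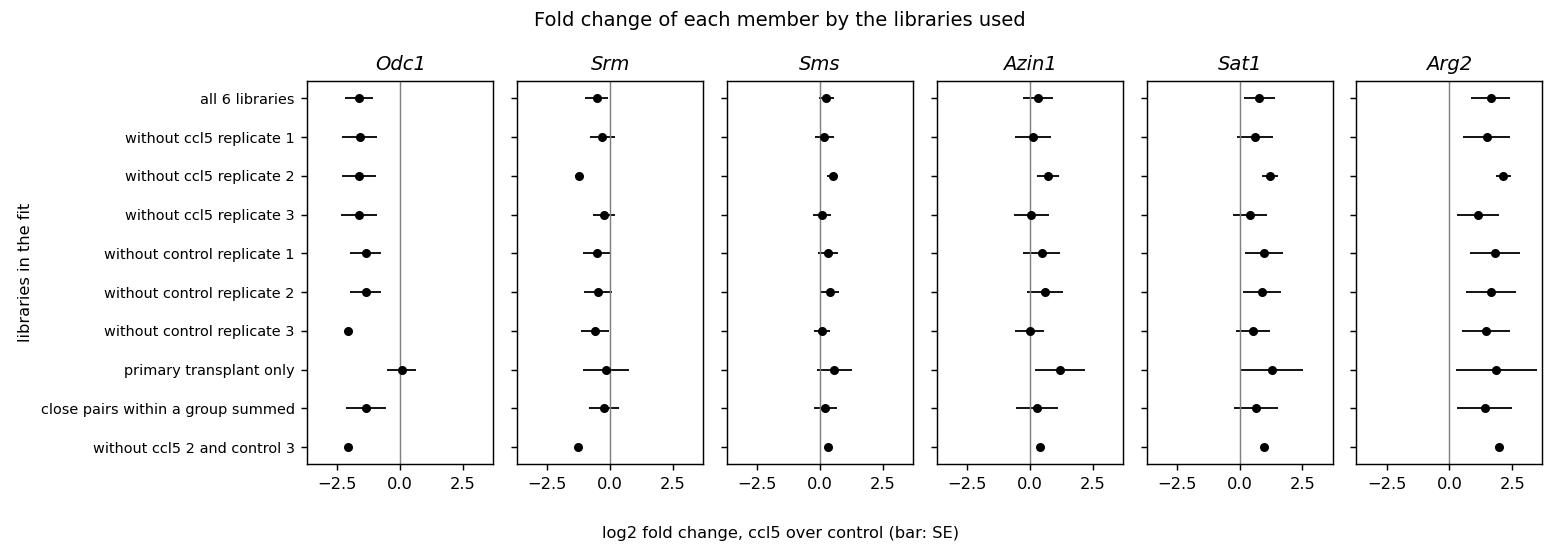
Log2 fold change, ccl5 over control (horizontal axis, point, with its SE as a bar), of the 6 tested genes for each choice of libraries (vertical axis). Odc1 moves from -1.65 with all libraries to 0.05 among primary transplants and to -2.07 when ccl5 replicate 2 and control replicate 3 are left out, and Srm is lowest where ccl5 replicate 2 is absent.

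Levels of different genes were compared per length, as TPM (counts divided by gene length and scaled to the same total in each library). The medians over 6 libraries ran from Sat1 at 1096 TPM through Odc1 at 154, Azin1 at 81.6, Srm at 43.4, Sms at 28.3 and Arg2 at 5.72 to Arg1 at 0.222. The ranges of Sat1 (607 to 1962) and Odc1 (106 to 527) did not overlap, and neither did those of Odc1 and Azin1 (36.9 to 93.3). Neighbours Azin1 and Srm (13.6 to 64.2) overlapped, as did Srm and Sms (23.0 to 31.8), so their order is not firm. Arg2 (3.38 to 21.5) stayed below Sms in every library. Within each library Sat1 ranked between 61 and 207 from the top of the table and Odc1 between 232 and 1034.

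The mRNA levels of genes of different roles were set against each other as a TPM ratio within a library. Protein, enzyme activity and polyamines were not measured, so the ratios do not give rates of synthesis or breakdown. Sat1 (breakdown) over Odc1 (synthesis) was 16.0, 3.78 and 18.5 with ccl5 and 2.18, 2.02 and 4.69 in the controls. It was lowest in control replicates 1 and 2, where Odc1 was high, and highest in ccl5 replicates 1 and 3, where Sat1 was high. Odc1 over Azin1 was 1.17, 4.18 and 1.15 with ccl5 and 6.73, 6.10 and 4.01 in the controls, so the mRNA for the enzyme exceeded that for the antizyme inhibitor in every library. Srm over Sms was 0.573, 2.66 and 0.429 with ccl5 and 1.56, 1.51 and 1.98 in the controls, with ccl5 replicates 1 and 3 alone below 1. Sat1 over Azin1 moved least, from 12.3 to 21.2 over the 6 libraries.

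The genes around the 9 were taken from 5 lists with 56 symbols, chosen with earlier results of these data known. Of these, 37 passed the filter, 16 with a higher and 21 with a lower fitted level in ccl5 libraries. None passed the adjusted test of edgeR (0 of 37), 8 had an unadjusted p under 0.05, beside 13.7% of all tested genes, and DESeq2's Wald test called 1 of 39 (Nos3). The median log2 fold change was -0.22, beside -0.01 for all tested genes. The groups did not overlap for 6 of the 37, or 16.2%, all higher with ccl5, beside 15.8% of all tested genes in either direction and 8.27% higher. Under the settings tried the count passing ran from 0 to 31. The 31 of 39 came from leaving out ccl5 replicate 2 and control replicate 3, where 70.7% of all genes passed. In that fit the log2 fold changes of the 6 genes without overlap were 0.30 for Oaz2, 2.17 for Eif5a2, 0.93 for Gpc1, 0.64 for Atp13a3, 0.73 for Adi1 and 1.53 for Slc7a7.

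Of the other polyamine enzymes and regulators 5 of 9 were tested, 2 higher and 3 lower. Oaz2, a second antizyme, whose counts do not suffer the overlap of Oaz1, measured 44.3, 45.4 and 43.3 CPM with ccl5 versus 38.9, 33.0 and 42.9 CPM in the controls. Its groups did not overlap, though control replicate 3 came close to ccl5 replicate 3, and its log2 fold change was 0.21 (SE 0.16). Spermine oxidase (Smox), which turns spermine back into spermidine, measured 53.4, 23.6 and 54.6 CPM with ccl5 versus 93.7, 75.2 and 24.9 CPM in the controls. It was thus low in the same libraries as Azin1, ccl5 replicate 2 and control replicate 3. Sat2, a relative of Sat1 in sequence, measured 6.05, 3.79 and 5.55 CPM with ccl5 versus 8.05, 8.58 and 5.01 CPM in the controls (log2 fold change -0.49, SE 0.34). The peroxisomal oxidase gene Paox, named after its values were seen, lay the other way, at 62.4 and 59.0 CPM in those libraries and between 19.8 and 37.6 CPM in the rest.

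Spermidine is also the donor for hypusine, the modified residue of the translation factor eIF5A. All 4 genes of this list were tested, 3 higher and 1 lower. Eif5a itself measured 286, 648 and 253 CPM with ccl5 versus 542, 562 and 576 CPM in the controls, low in ccl5 replicates 1 and 3 as Srm was. Its relative Eif5a2 measured 9.04, 3.73 and 8.74 CPM with ccl5 versus 1.40, 2.51 and 3.41 CPM in the controls, without overlap, with a log2 fold change of 1.55 (SE 0.51). Dohh, the hydroxylase that completes hypusine, ranged only from 35.2 to 44.9 CPM over the 6 libraries.

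Among genes tied to polyamine transport 4 of 8 were tested. All 4 had a higher fitted level with ccl5, as had 5964 of all 12174 tested genes. Gpc1, a heparan sulfate proteoglycan that takes part in polyamine uptake, measured 357, 268 and 303 CPM with ccl5 versus 185, 167 and 243 CPM in the controls, without overlap. The transporter ATPase gene Atp13a3 measured 255, 216 and 275 CPM with ccl5 versus 174, 170 and 210 CPM in the controls, also without overlap. Both were lower in ccl5 replicate 2 than in the other ccl5 libraries and higher in control replicate 3 than in the other controls. The lysosomal polyamine exporter gene Atp13a2 measured 299, 82.1 and 271 CPM with ccl5 versus between 77.5 and 98.9 CPM in the controls, and the amino acid transporter subunit gene Slc3a2 had the same layout at 276, 81.1 and 255 CPM against 71.4 to 96.6 CPM. In both, ccl5 replicate 2 lay inside the control range.

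The methionine cycle and salvage pathway supplies the aminopropyl groups and recovers methionine from what is left. Of its 11 genes 10 were tested, 5 higher and 5 lower. Adi1, a dioxygenase of the salvage pathway, measured 49.4, 36.8 and 51.3 CPM with ccl5 versus 29.8, 31.4 and 32.0 CPM in the controls, without overlap (log2 fold change 0.56, SE 0.18). Mtap, the phosphorylase that opens the salvage pathway, measured 12.96, 17.7 and 12.47 CPM with ccl5 versus 25.7, 29.3 and 14.8 CPM in the controls, high only in control replicates 1 and 2. Mat2a, which makes S-adenosylmethionine, measured 63.6, 100.3 and 71.2 CPM with ccl5 versus 113, 121 and 92.7 CPM in the controls.

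Genes of arginine and ornithine metabolism, 14 of 24 tested, were lower with ccl5 in 12 and higher in 2, with a median log2 fold change of -0.49. Among all 12174 tested genes 6210 were lower and 5964 higher, with a median of -0.01. Several handle the same ornithine that Odc1 uses. Slc25a15, the mitochondrial ornithine carrier, measured 12.46, 15.3 and 12.9 CPM with ccl5 versus 47.7, 42.7 and 13.3 CPM in the controls. Pycr1, which completes proline synthesis, measured 3.92, 3.48 and 4.005 CPM with ccl5 versus 28.6, 30.6 and 2.86 CPM in the controls. Both therefore shared the layout of Odc1, high in control replicates 1 and 2 and low in control replicate 3, and their groups overlapped through that library. Without control replicate 3, Pycr1, Slc25a15 and Nos3 (endothelial nitric oxide synthase) were the 3 of 39 tested genes of the 5 lists that passed, all lower with ccl5, beside 1.88% of all genes. Nos3 was under the filter with all libraries, at 0.214 to 0.366 CPM with ccl5 versus 5.71, 4.85 and 0.385 CPM in the controls.

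The arginine transporter subunit gene Slc7a7 was 1 of the 2 genes with a higher fitted level, at 20.2, 8.92 and 18.8 CPM with ccl5 versus 5.64, 7.94 and 7.98 CPM in the controls, without overlap (log2 fold change 1.15, SE 0.38). The urea cycle genes Otc and Cps1 had 0 counts in all libraries and share no exon base with another row. Ass1 also stood at 0, but 95.2% of its exon bases are shared with the row of its pseudogene Gm5424, so its 0 is not a measurement.

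**Figure D4:**
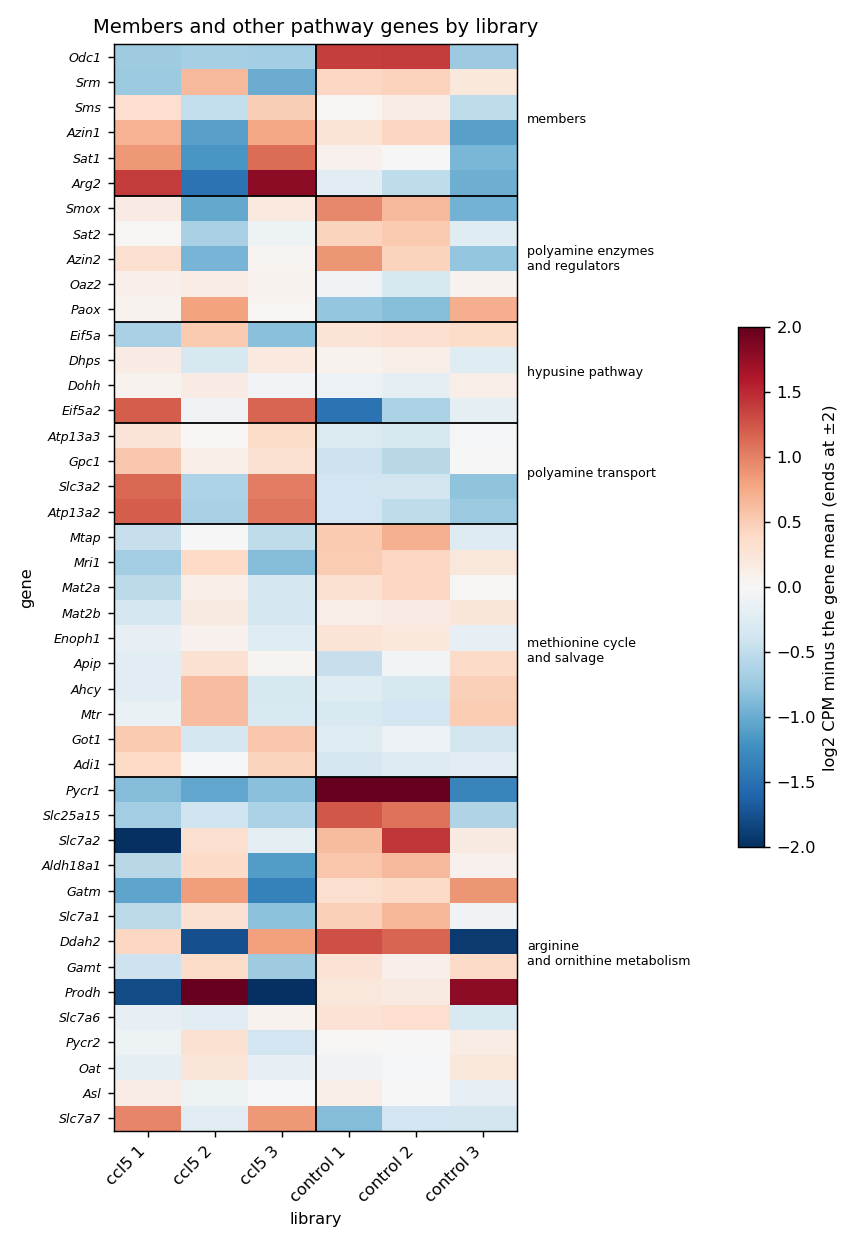
Log2 CPM minus the gene's mean over 6 libraries (colour, ends of the scale at 2 either way) of the 6 tested members and the 37 tested genes of the 5 lists (rows) in each library (columns). Odc1, Pycr1 and Slc25a15 are high in control replicates 1 and 2 alone, and the columns of ccl5 replicate 2 and control replicate 3 look alike.

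**Figure D5:**
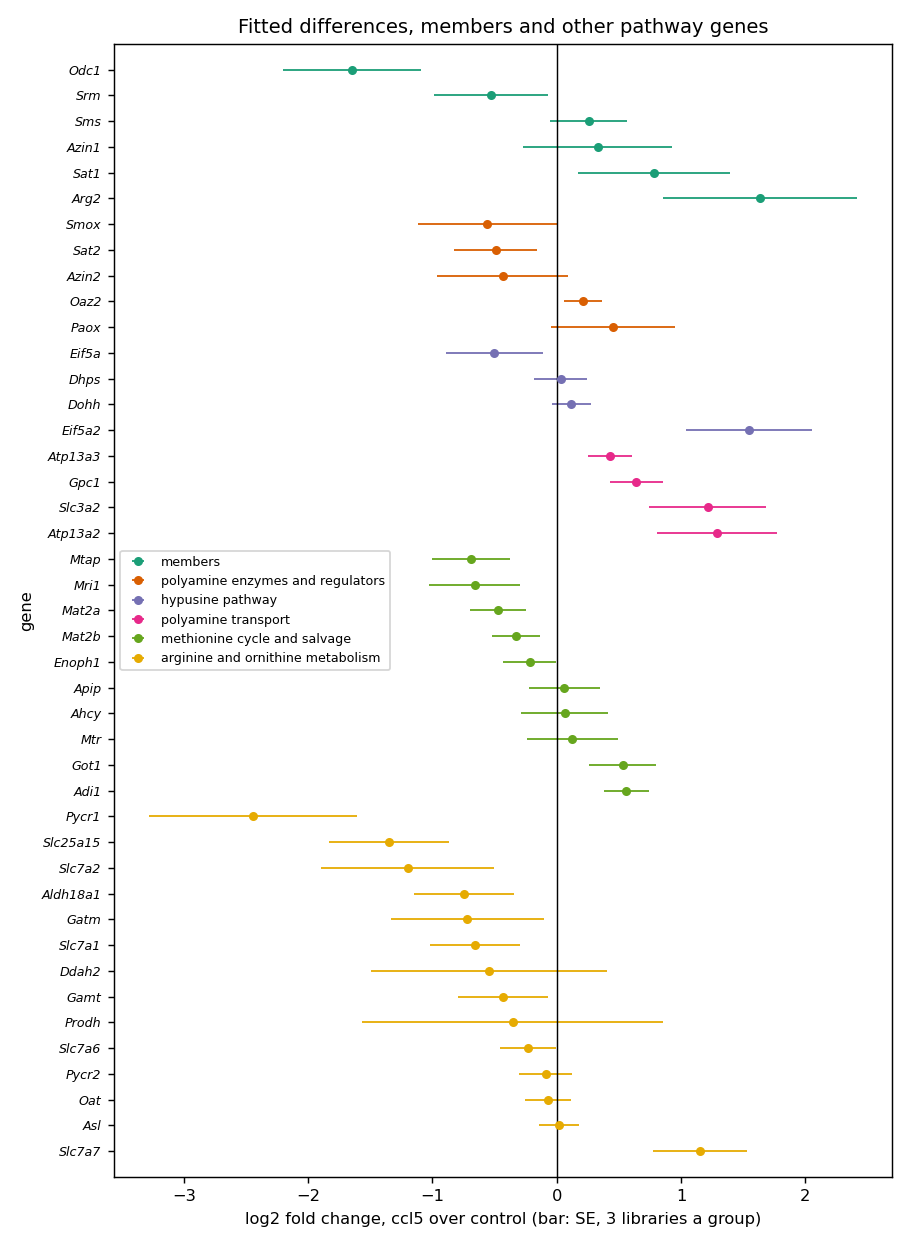
Fitted log2 fold change, ccl5 over control (horizontal axis, point, with its SE as a bar, 3 libraries a group), of the 6 tested members and the 37 tested genes of the 5 lists, coloured by list. No gene passed the adjusted test, the 4 transport genes lie above 0, and 12 of 14 genes of arginine and ornithine metabolism lie below it. Of all 12174 tested genes, 5964 lie above 0 and 6210 below it.

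Odc1 is a textbook target of the transcription factor MYC, and Srm has been linked to it as well. Myc, named after its values were seen, measured 9.76, 67.0 and 5.10 CPM with ccl5 versus 64.4, 64.8 and 53.3 CPM in the controls. It was low in ccl5 replicates 1 and 3, which are the low libraries of Srm and Eif5a. In ccl5 replicate 2 and control replicate 3 Myc measured 67.0 and 53.3 CPM, and Odc1 measured 193 and 184 CPM. The part of MYC in the levels of Odc1, Srm and Eif5a was not tested. Of the 11 genes of the MYC network 9 were tested, 5 higher and 4 lower, and 0 passed. Max, the partner of MYC, did not overlap, at 49.0 to 52.2 CPM with ccl5 versus 41.3 to 45.4 CPM in the controls. Mnt, which competes with MYC for Max, measured 91.7, 30.3 and 87.2 CPM with ccl5 versus 28.0 to 32.3 CPM in the controls. Mxi1, another partner of Max, measured 129, 145 and 128 CPM with ccl5 versus 83.6, 75.8 and 139 CPM in the controls.

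RefSeq promoter windows (GRCm38.p6) were matched for 5 of the 9 genes, and Srm, Azin1, Arg1 and Arg2 had none. The sequences before the starts of Odc1 and Sat1 are shown because these genes lay on opposite sides in the libraries, Odc1 high in control replicates 1 and 2 and Sat1 high in ccl5 replicates 1 and 3. Capitals mark GC boxes (GGGCGG on either strand). The Odc1 stretch is chr12:17544623-17544793 on the plus strand, and the Sat1 stretch is chrX:155216450-155216699 on the minus strand, both 5′ to 3′.
Odc1: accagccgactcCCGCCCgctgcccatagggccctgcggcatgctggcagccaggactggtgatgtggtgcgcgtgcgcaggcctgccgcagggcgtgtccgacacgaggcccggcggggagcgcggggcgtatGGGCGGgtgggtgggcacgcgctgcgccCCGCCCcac
Sat1: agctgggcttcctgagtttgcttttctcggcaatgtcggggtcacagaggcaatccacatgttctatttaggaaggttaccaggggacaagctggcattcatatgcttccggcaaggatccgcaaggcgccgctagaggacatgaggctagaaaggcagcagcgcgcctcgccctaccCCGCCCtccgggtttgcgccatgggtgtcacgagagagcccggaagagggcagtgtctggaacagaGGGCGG

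A GC box, the site bound by the SP family of factors, begins at -238, -116, -88 and -15 from the Odc1 start and at -72 and -6 from the Sat1 start, and the Odc1 box at -15 lies past the printed stretch. The canonical E-box bound by MYC and MAX (CACGTG) was found in the window of Sms, at -196 from 1 of its starts, and its letters are in neither printed stretch. Among all 32851 windows, each of the same length,, 35.7% held a GC box and 7.15% held the E-box, so a match is common for the first. A match describes letters only, and no match says nothing about a factor or about sites outside the window.

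Markers of cell types and of growth had layouts over the libraries like some of these levels. Whether leukemia cells or other cells gave these markers was not tested. The summed level of 13 macrophage markers was 3612, 632 and 3592 CPM with ccl5 versus 794, 860 and 647 CPM in the controls, high in ccl5 replicates 1 and 3 as Sat1 and Arg2 were. Cd68 alone gave 2032 CPM of the sum in ccl5 replicate 1 and 1986 CPM in ccl5 replicate 3. Of these markers 11 were tested, 10 higher and 1 lower (Cd163), beside 5964 higher and 6210 lower among all tested genes. Timd4, a marker of tissue-resident macrophages, was at 0. The groups of 4 did not overlap, all higher (36.4%, beside 8.27% of all tested genes). The 4 were Mertk, C1qa, C1qb and C1qc. The C1q genes were low in control replicates 1 and 2 alone, which is not the layout of Sat1 or Arg2. C1qb measured 130, 69.7 and 110 CPM with ccl5 versus 1.27, 1.07 and 67.5 CPM in the controls. The summed level of 7 markers of alternatively activated macrophages, a state linked to Arg1, ran from 80.1 to 328 CPM with ccl5 and from 183 to 340 CPM in the controls, with Retnla at 0. This sum mixes genes of different layouts. Clec10a was highest in control replicates 1 and 2 (182 and 171 CPM). Chil3 was highest in ccl5 replicate 2 and control replicate 3 (166 and 177 CPM), and Pdcd1lg2 in ccl5 replicates 1 and 3 (4.91 and 7.64 CPM). The part of macrophages in the levels of Sat1 and Arg2 was not tested.

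The 10 cell division genes summed to 231, 2106 and 153 CPM with ccl5 versus 799, 847 and 2011 CPM in the controls. All 10 had a lower fitted level with ccl5, as had 6210 of all 12174 tested genes. The groups overlapped for all 10, where 15.8% of all tested genes did not overlap. The smallest unadjusted p of the list in edgeR was 0.425 (Cdk1, log2 fold change -0.95, SE 1.105). Their sum was lowest where Srm was lowest and highest in ccl5 replicate 2 and control replicate 3. Srm was highest in ccl5 replicate 2 as well, but in control replicate 3, at 29.5 CPM, it was the lowest of the controls. The part of cell division in the level of Srm was not tested. The 9 neutrophil markers in the table summed to 15480 CPM in ccl5 replicate 2 and 15210 CPM in control replicate 3. In the other 4 libraries they summed to between 249 and 2943 CPM. The largest parts of the 2 high sums were Ngp (4905 and 4713 CPM) and Elane (4548 and 4360 CPM). Ctsg had another layout, at 172, 1986 and 115 CPM with ccl5 versus 1734, 1742 and 2141 CPM in the controls. Sat1, Azin1 and Arg2 were low in ccl5 replicate 2 and control replicate 3. The part of neutrophil-like cells in those levels was not tested.

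Hepatocyte markers, of which Alb, Apoa1, Ttr, Fgb and Cps1 were at 0, summed to at most 0.127 CPM. B cell markers summed to 11.4 to 16.9 CPM, nearly all from Cd79b (10.5 to 15.9 CPM). T and NK cell markers summed to between 1.001 and 67.2 CPM, with Ncr1 at 0, and nearly all of the 2 high sums came from Nkg7, at 60.5 CPM in ccl5 replicate 2 and 66.7 CPM in control replicate 3. Endothelial and stromal markers summed to between 29.1 and 99.3 CPM, and Pecam1 gave 26.3 to 94.1 CPM of that.

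The genes with the layout most like that of Odc1, Sat1 and Arg2, the members with the widest range, were found among 8887 genes by the root mean square difference of mean-centred log2 CPM over the 6 libraries. For Odc1 they were Cst7 (difference 0.149), Pmaip1 (0.153), Pros1 (0.174), Osm (0.175) and Bzrap1 (0.179). Cst7, a cystatin, measured 22.8, 27.8 and 20.3 CPM with ccl5 versus 108, 113 and 25.3 CPM in the controls. Pmaip1, which encodes the BH3 protein NOXA, measured 62.4, 77.7 and 75.7 CPM with ccl5 versus 306, 315 and 88.9 CPM in the controls. Both had the layout of Odc1, high in control replicates 1 and 2 alone.

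For Sat1 the nearest were Fgd6 (0.0669), Atp6v1g1 (0.0774), Fam84b (0.0826), Tnfrsf12a (0.101) and Tnfrsf11a (0.101). Atp6v1g1, a subunit of the proton pump of lysosomes, measured 451, 115 and 504 CPM with ccl5 versus 234, 232 and 118 CPM in the controls. For Arg2 they were Bri3 (0.108), Cd84 (0.134), P2rx4 (0.143), Ninj1 (0.148) and Hgsnat (0.157). Cd84, a receptor of the SLAM family on leukocytes, measured 835, 115 and 981 CPM with ccl5 versus 211, 216 and 136 CPM in the controls. These likenesses rest on 6 libraries that fall into 3 close pairs.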

How the data were processed

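The authors deposited raw read counts per gene for 6 polyadenylated RNA libraries (single-end reads of 100 bases, by the labels' protocols), with the exon length of each gene. Counts came from featureCounts 1.5.1 on primary alignments with UCSC mm10 genes, per the file headers, with no strand or overlap option. The submitters' processing notes also name DESeq2, TopHat, Bowtie and Trimmomatic, without settings. The members and gene lists were chosen with earlier results of these data known, and 0 columns of samples were left unused.

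Counts were TMM-scaled, filtered with filterByExpr (minimum count 10; 12174 of 18580 genes with a count) and tested with edgeR 4.0.16 (quasi-likelihood, two-sided, Benjamini-Hochberg, threshold 0.05) in R 4.3.3 on all 6 libraries, 3 a group. SE is the absolute log2 fold change over the square root of F. TPM used the deposited lengths. The fit was tested on simulated data. Named list genes were those without overlap between groups and up to 3 with the smallest p a list. DESeq2 1.42.0 and limma 3.58.1 were alternatives. Azin2 is listed as Adc. One marker list is not reported here.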

Additional observations from a re-analysis of the deposited data

How the results depend on the processing

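Genes passing the test numbered 0 with all libraries, and also with DESeq2 size factors, no filter, a stricter filter, primary transplants only and close libraries of a group counted as 1. DESeq2's Wald test called 194 and limma-voom 8097. Leaving out 1 library in turn gave 0 to 3299 (3299 without ccl5 replicate 2, 237 without control replicate 3), and leaving out both of these, an alternative chosen after seeing the data, gave 8797. Of the 6 tested members, limma-voom called 5 (all but Azin1; 66.5% of all genes), leaving out 1 library 0 to 2 (0% to 26.2%), and leaving out both 6 (70.7%). Of the other pathway genes, beside the same shares of all genes, DESeq2 called 1 (Nos3; 1.54%), limma-voom 27, leaving out 1 library 0 to 15, and leaving out both 31. Members without overlap numbered 0 to 5 when 1 library was left out (5 without ccl5 replicate 2, all but Odc1, and Odc1 alone without control replicate 3). Smaller groups separate more easily, and the share of all genes without overlap was not computed for these choices of libraries. Nothing is read from these counts of members. The cause of the shifts between settings was not tested.

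The log2 fold change of Odc1 turned to 0.0499 among primary transplants and that of Azin1 to -0.0053 without control replicate 3. Leaving out 1 library in turn, it ran from -2.06 to -1.37 for Odc1, -1.22 to -0.24 for Srm, 0.08 to 0.50 for Sms, 0.41 to 1.22 for Sat1, -0.01 to 0.73 for Azin1 and 1.13 to 2.14 for Arg2. Between ccl5 replicate 2 and control replicate 3 alone, with no test, Odc1 lay at 0.07, Srm at 0.44, Sat1 at -0.24 and Arg2 at -0.48, each on the other side of 0 from the fit on all libraries. The median of Sat1 over Odc1 was 4.23 per length and 1.85 in CPM. No paired analysis was possible because the labels give replicate numbers to the control libraries alone: the numbers of the ccl5 libraries were given here in accession order and only name them. Where an arm holds 1 library, it is assumed to vary like the others. Depth limits Arg1 alone among the countable members, and counting limits Amd1 and Oaz1.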

Other observations

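The loss of counts at shared exons reaches beyond Amd1 and Oaz1. In the 214 genes with at least 50% but under 95% of exon bases shared with another row, 76 (35.5%) had 0 counts in all libraries and the median total was 5 counts. In the 2107 genes that shared less than that, 155 (7.36%) had 0 counts and the median total was 940. Genes that share no base had a median total of 112 counts. Among the other pathway genes, Amd2 (all bases shared) and Ass1 (1552 of 1631) share most bases, and of those tested Dhps (9.54%), Slc7a7 (9.10%) and Mat2a (7.596%) share some.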
